A study of Homo sapiens with 11 samples.

Results

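Nuclear-encoded oxidative phosphorylation genes were followed in MDA-MB-231, an established human triple-negative breast cancer (TNBC) cell line, with and without knock-down (KD) of the histone variant macroH2A1.1 (mH2A1.1). The members were the protein-coding genes of the count tables on chromosomes 1 to 20 whose symbols begin with NDUFA, NDUFB, NDUFC, NDUFS, NDUFV, UQCR, ATP5, COX4, COX5, COX6, COX7 or COX8, together with SDHA, SDHB, SDHC, SDHD and CYC1. They were 88 of the 16759 protein-coding genes counted on these chromosomes. Because the rule reads symbols only, it also took in 8 assembly factors of complex I, 2 readthrough genes and the retrocopy UQCRHL. Left out were 8 genes of these families on chromosomes 21, 22 and X, namely ATP5MGL, ATP5PF, ATP5PO, COX7B, NDUFA1, NDUFB11, NDUFV3 and UQCR10. RNA-seq covered 2 WT and 2 mH2A1.1 KD libraries of total RNA, and ChIP-seq gave 1 peak list for mH2A1.1 and 1 for total mH2A1. KD cells were collected on day 3 after siRNA transfection at 11 nM with the INTERFERin reagent, WT cells received the reagent with no siRNA, and cells for ChIP-seq were left untreated. Receiving an siRNA and losing mH2A1.1 therefore cannot be told apart in these libraries. All libraries come from 1 cell line, and nothing states that replicates came from separate cultures, so that p-values measure only the spread between these samples, which may be technical. In such bulk RNA, fewer cells of a type and less RNA per cell cannot be told apart either.

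Oxidative phosphorylation passes electrons from NADH and succinate along the complexes of the inner mitochondrial membrane to oxygen, and the proton gradient built on the way drives ATP synthase. Complex I (NADH dehydrogenase), complex III (the cytochrome bc1 complex), complex IV (cytochrome c oxidase) and ATP synthase combine subunits encoded in the nucleus with subunits encoded in mitochondrial DNA, whereas complex II (succinate dehydrogenase) is nuclear-encoded throughout and also works in the tricarboxylic acid (TCA) cycle. mH2A1 is a histone H2A variant with a large C-terminal macrodomain, and its splice form mH2A1.1 binds ADP-ribose derivatives of NAD+, the cofactor that complex I regenerates. Transcripts of mitochondrial DNA were not analysed here.

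Total counts were 9794674 and 7856892 for the WT libraries and 5584962 and 2309549 for the KD libraries, so that KD replicate 2 was the shallowest library. It also held no counts on chromosomes 22 and X, and tests were therefore fitted on chromosomes 1 to 20. Levels are given as CPM (counts scaled to a common library size) after TMM scaling, always in the order WT replicates 1 and 2, then KD replicates 1 and 2. Pearson's r of log2 CPM across genes, which are not independent replicates, was 0.994 between the WT and 0.959 between the KD libraries. MACROH2A1, the targeted gene, was at 385, 394, 274 and 301 CPM, lower in both KD libraries, with a log2 fold change of -0.44 ± 0.17 (SE) and an adjusted p of 0.204 (edgeR quasi-likelihood test, Benjamini-Hochberg adjustment over all genes tested). These counts join both splice forms, so that the level of mH2A1.1 itself is not shown. The MDA-MB-231 markers VIM, CD44, KRT8, KRT18, CAV1 and AXL lay between 344 and 4733 CPM. ESR1 and PGR had no counts, while COL1A1, a fibroblast gene, was at 9.69, 8.69, 18.4 and 33.1 CPM. CDH1 lay between 0.378 and 2.502 CPM and PECAM1, an endothelial gene, between 3.06 and 5.49 CPM, and the part of other cells in the results was not tested.

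Of the 88 members, 76 passed the filter on low counts and were tested among 10943 genes. The median log2 fold change of KD over WT was 0.43 over the 76 members and 0.0077 over all genes tested, and 59 members lay above 0 (77.6%, against 50.6% of all genes tested). edgeR called no member, nor any other gene (0%), when a call needed a fold change beyond 1.5 and an adjusted p below 0.1. Adjusted p-values began at 0.175. With the unadjusted p below 0.05, 28 members were higher and 5 lower in KD, where 11.8% and 11.4% of all genes were. Both KD libraries lay above both WT libraries for 50 members (65.8%) and below for 9 (11.8%), with a background of 32.5% and 32.4%. The members thus stood higher in KD more often than genes at large, while this edgeR fit separated no gene from the spread between replicates, and other fits did call members.

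The KD libraries differed in how far the members moved. The median log2 ratio to the WT mean, with 0.5 CPM added, was 0.23 in KD replicate 1 and 0.64 in KD replicate 2, and over all genes tested it was -0.00062 and -0.0018. Members made up 0.466% and 0.493% of the counts on chromosomes 1 to 20 in WT, 0.541% in KD replicate 1 and 0.679% in KD replicate 2. This share rose as total counts fell, also between the WT libraries. Both KD libraries were shallower than both WT libraries, so that KD and depth cannot be told apart here, and the part of depth was not tested. Ratios of 54 members (71.1%) were above 0 in both KD libraries and those of 11 (14.5%) were below 0 in both, where 37.9% and 38.1% of all genes tested were, and both ratios share the WT mean. For KD replicate 1 alone, 53 members lay above both WT libraries and 13 below, with a background of 42.4% and 42.1%. The median SD was 7.58% of the mean in WT and 27.2% in KD across the tested members (5.77% and 20.6% over all genes tested). The members' ratios were thus larger in KD replicate 2.

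**Figure D1:**
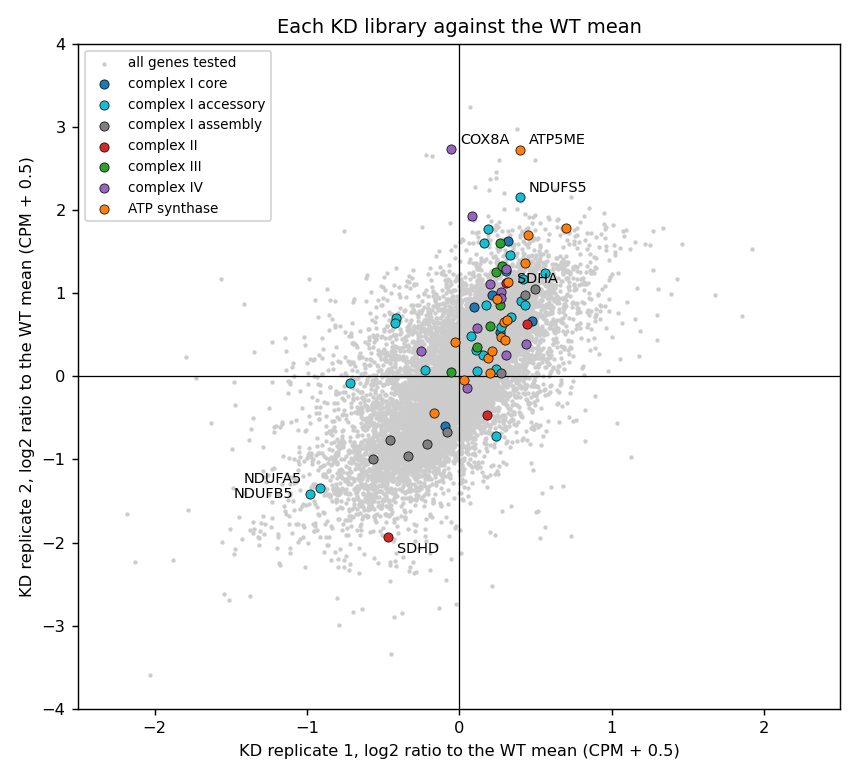
Log2 ratio of each KD library to the WT mean (CPM + 0.5), KD replicate 1 on the x axis and KD replicate 2 on the y axis, for all genes tested (grey) and the 76 tested members (coloured by role). Most members sit in the upper right, with 54 above 0 on both axes, while COX8A lies high on the y axis only and NDUFB5, NDUFA5 and SDHD sit below 0 on both.

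DESeq2, the tool of the study, placed some members past the same thresholds. On chromosomes 1 to 20 it called 13 members higher and 3 lower among the 59 members with an adjusted p, with a background of 5.57% and 5.78%. The 13, named because DESeq2 called them and therefore after their values were seen, were ATP5F1D, ATP5F1E and ATP5ME of ATP synthase, NDUFB10, NDUFS5, NDUFS6, NDUFS7 and the assembly factor NDUFAF3 of complex I, SDHA of complex II, CYC1, UQCRC1 and UQCRQ of complex III, and COX6B1 of complex IV. The 3 lower ones were NDUFA5, NDUFB5 and SDHD. With all chromosomes in the fit, DESeq2 called 3 members higher (ATP5F1E, NDUFAF3 and NDUFB2) and 2 lower (NDUFA5 and NDUFB5) of 69, against 4.43% and 5.78% of all genes. That fit took in chromosomes 22 and X, on which KD replicate 2 held no counts. NDUFB5, NDUFA5, ATP5F1E and NDUFAF3 were thus called in both DESeq2 fits, and the other DESeq2 calls depended on which chromosomes entered.

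In complex I, core subunits, which carry the flavin and iron-sulfur centres and are shared with bacteria, had log2 fold changes above 0 for 5 of the 6 tested. NDUFS8, the core subunit with the highest WT level per length at 18.8 CPM per kb of exon, was at 78.1, 92.3, 91.2 and 153 CPM, and its WT and KD libraries overlapped. NDUFS7, which carries the last iron-sulfur cluster before ubiquinone, was at 29.0, 31.1, 37.7 and 94.2 CPM, with both KD libraries above WT. NDUFV2 was at 18.3, 16.5, 16.3 and 11.4 CPM and was the core subunit below 0, at a log2 fold change of -0.28 ± 0.25 (SE). The median of the 6 was 0.54. NDUFS1, the largest iron-sulfur subunit, was listed at 0 in every library although other core subunits were counted.

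Accessory subunits of complex I, which surround the core, gave a median log2 fold change of 0.36 over 24 tested, with 16 wholly above WT, 2 wholly below and 6 overlapping. NDUFS5, an accessory subunit on the intermembrane-space side (ENSG00000168653, chr1:39026318-39034636, plus strand), was at 56.8, 57.3, 75.3 and 257 CPM. Its log2 fold change was 1.52 ± 0.50 (SE, adjusted p = 0.193, edgeR), and without KD replicate 2 it was 0.40. NDUFS5 also had the highest WT level per length of this role, at 104 CPM per kb. At the other end, NDUFB5, a subunit of the membrane arm (ENSG00000136521, chr3:179604690-179627647, plus strand), was at 44.6, 37.9, 20.6 and 15.1 CPM. NDUFA5, of the matrix arm (ENSG00000128609, chr7:123536997-123557904, minus strand), was at 75.9, 64.9, 37.1 and 27.5 CPM. KD libraries of both genes lay below WT by more than the gap between replicates, with log2 fold changes of -1.17 ± 0.24 and -1.10 ± 0.22 (SE) and an adjusted p of 0.175 each in edgeR. NDUFB5 and NDUFA5 were lower without KD replicate 2 as well, at -1.0 and -0.92. With offsets for GC content and length they were nearer to WT, at -0.73 and -0.56.

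Assembly factors of complex I, which help build the complex and are not part of it, lay on both sides of WT. Of 8 tested, 4 were wholly below WT, 2 wholly above and 2 overlapped, and the median log2 fold change was -0.36. NDUFAF1, of the assembly complex for the membrane arm, was at 12.1, 15.3, 9.08 and 6.63 CPM, with a log2 fold change of -0.74 ± 0.28 (SE). NDUFAF5, which modifies NDUFS7 during assembly, was at 20.5, 17.1, 13.6 and 10.9 CPM, with -0.59 ± 0.24 (SE). Both were below WT in each KD library. NDUFAF3, the assembly factor with the highest WT level per length at 20.8 CPM per kb, was at 33.3, 38.7, 51.1 and 75.3 CPM and was wholly above. In the fit with offsets for GC content and length, described further on, the median of the 8 was 0.020, so the side of this group depended on that setting.

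The 4 subunits of complex II split. SDHA, the flavoprotein that oxidises succinate (ENSG00000073578, chr5:218303-257082, plus strand), was at 170, 179, 216 and 379 CPM. SDHB, the iron-sulfur subunit, was at 58.7, 54.9, 77.4 and 88.5 CPM. Both catalytic subunits lay above WT in each KD library, with log2 fold changes of 0.77 ± 0.28 and 0.54 ± 0.18 (SE). SDHC, a membrane anchor, was at 145, 140, 162 and 103 CPM, with KD libraries on either side of WT and a log2 fold change of -0.093 ± 0.24 (SE). SDHD, the other anchor (ENSG00000204370, chr11:112086824-112120016, plus strand), was at 68.3, 61.2, 46.7 and 16.6 CPM. Its KD libraries lay below WT, at a log2 fold change of -0.95 ± 0.40 (SE, adjusted p = 0.212, edgeR), and its count in KD replicate 2 was 35. SDHD also shared 319 exon bases with another annotated gene on its strand, and SDHA shared 1887, whose part in these values was not tested. The difference between catalytic and anchor subunits was not tested as such.

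**Figure D2:**
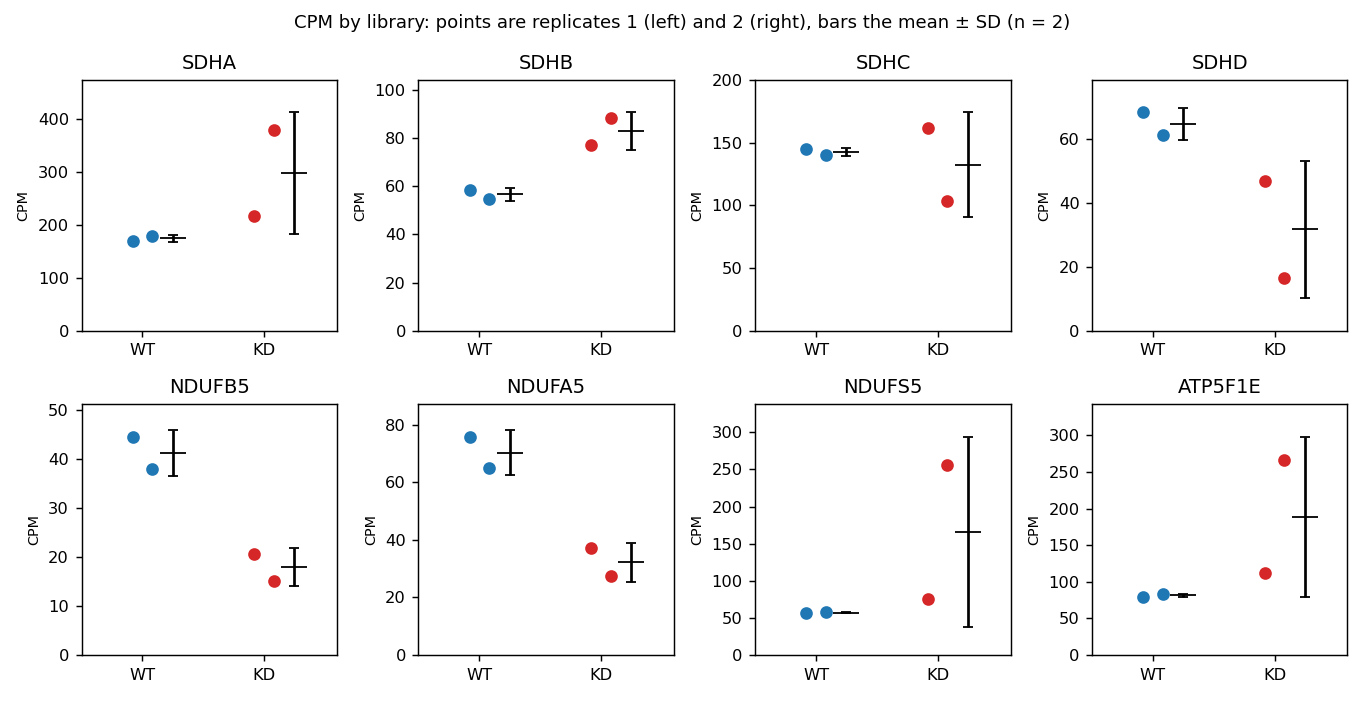
CPM (y axis, from 0) of 8 members in WT (blue) and mH2A1.1 KD (red) libraries, with replicate 1 on the left and replicate 2 on the right of each pair and bars for the mean ± SD (n = 2). SDHA and SDHB lie above WT in both KD libraries, SDHC on either side and SDHD below, NDUFB5 and NDUFA5 lie below WT in both, and for NDUFS5 and ATP5F1E KD replicate 2 is far above KD replicate 1.

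Complex III, which passes electrons from ubiquinol to cytochrome c, was higher in KD for 6 of 7 tested subunits, with a median log2 fold change of 0.59. UQCRH, the hinge protein and the highest per length at 44.8 CPM per kb in WT, was at 54.6, 65.7, 72.5 and 110 CPM. UQCRQ, a small subunit, was at 47.8, 51.1, 59.6 and 151 CPM, with a log2 fold change of 1.06, or 0.28 without KD replicate 2. CYC1, the cytochrome c1 subunit, was at 77.9, 86.6, 97.2 and 196 CPM, with 0.82, or 0.25 without KD replicate 2. Both lay above WT, mostly through 1 library. UQCR11, a small subunit, was level at 6.85, 7.77, 7.0 and 7.57 CPM. The core protein gene UQCRC2 had 2, 9, 3 and 0 counts and did not pass the filter, although its partner UQCRC1 was at 81.4, 95.3, 107 and 223 CPM.

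Complex IV had a median of 0.64 over 11 tested subunits, with a median log2 ratio to WT of 0.20 in KD replicate 1 and 0.94 in KD replicate 2. Of the 11, 7 were wholly above WT, 4 overlapped and none was wholly below. COX7C, its highest per length at 58.9 CPM per kb in WT, was at 113, 119, 140 and 223 CPM. COX4I1, the ubiquitous form of the regulatory subunit IV, was at 105, 109, 123 and 232 CPM, with a log2 fold change of 0.72 ± 0.30 (SE). COX6B1, which faces the intermembrane space, was at 72.9, 82.7, 96.5 and 191 CPM and was also wholly above WT. COX8A, the ubiquitous subunit VIII (ENSG00000176340, chr11:63974620-63976543, plus strand), was at 4.32, 5.93, 4.92 and 36.9 CPM. Its log2 fold change of 1.82 ± 0.82 (SE, adjusted p = 0.228, edgeR) rested on KD replicate 2 and was -0.035 without it. COX6A1 likewise was at 2.00, 2.24, 2.27 and 9.47 CPM, and was at 0.11 without KD replicate 2.

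Tissue-restricted isoforms of complex IV had few or no counts. COX4I2, COX6A2 and COX7A1, the lung, heart and muscle forms, were listed at 0 in every library, COX6B2 had at most 4 counts and COX7B2 at most 3. As NDUFS1 and UQCRC2, which such cells use, were also at or near 0, and the annotation behind the counts is not given in the sources used here, these values do not show that the isoforms were not expressed. NDUFA4, a subunit of complex IV despite its name, was at 56.3, 68.5, 84.8 and 81.9 CPM, whereas NDUFA4L2, its hypoxia-associated relative, had 1 count in all. COX7A2, the ubiquitous form, was at 103, 102, 127 and 124 CPM, wholly above WT by little. COX7A2L, which joins complexes III and IV into supercomplexes, was at 54.4, 48.9, 53.5 and 46.9 CPM, with overlapping groups and a log2 fold change of -0.032 ± 0.19 (SE), positive with offsets.

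ATP synthase gave 16 tested members of 16, of which 13 were wholly above WT, 1 wholly below and 2 overlapped, with a median log2 fold change of 0.43. ATP5F1B, the catalytic beta subunit, had the highest WT level per length of all members at 204 CPM per kb and was at 454, 461, 564 and 621 CPM. Next in the order of all members came NDUFS5 at 104, ATP5MK at 95.2 and SDHC at 74.9 CPM per kb. WT libraries gave 86.4 and 104 CPM per kb for ATP5MK and 104 and 105 for NDUFS5, so those neighbours were not separated. ATP5F1E, the epsilon subunit of the rotor (ENSG00000124172, chr20:59025475-59032345, minus strand), was at 79.4, 83.1, 111 and 266 CPM, with a log2 fold change of 1.20 ± 0.38 (SE). ATP5F1C, the gamma subunit of the rotor, was the member wholly below WT at 141, 147, 128 and 106 CPM. Its log2 fold change was -0.30 ± 0.18 (SE), or 0.011 with offsets for GC content and length, so its side depended on that setting.

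Subunits e and f hold ATP synthase dimers together in the membrane. ATP5ME (ENSG00000169020, chr4:672436-674330, minus strand) was at 6.95, 8.03, 10.0 and 52.5 CPM, with a log2 fold change of 1.92 ± 0.69 (SE, adjusted p = 0.194, edgeR), or 1.17 with offsets. Without KD replicate 2, that of ATP5ME was 0.43. ATP5MF was at 5.69, 4.87, 8.89 and 19.4 CPM, with 1.29 ± 0.40 (SE), and 0.74 without KD replicate 2. Both were wholly above WT, and the size came mostly from 1 library. ATP5MC1, ATP5MC2 and ATP5MC3 encode the same mature c subunit of the rotor ring and had log2 fold changes of 0.21 ± 0.18, 0.62 ± 0.26 and 0.20 ± 0.22 (SE). ATP5MC1 was at 51.6, 54.4, 60.4 and 62.0 CPM, ATP5MC2 at 55.9, 63.6, 71.0 and 115 CPM, and ATP5MC3 at 60.9, 70.4, 64.3 and 87.6 CPM, and per length their WT levels were 20.3, 15.3 and 16.9 CPM per kb. ATP5IF1, the inhibitor of ATP hydrolysis by the enzyme, was at 50.0, 56.2, 66.4 and 117 CPM, with 0.77 ± 0.28 (SE).

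**Figure D3:**
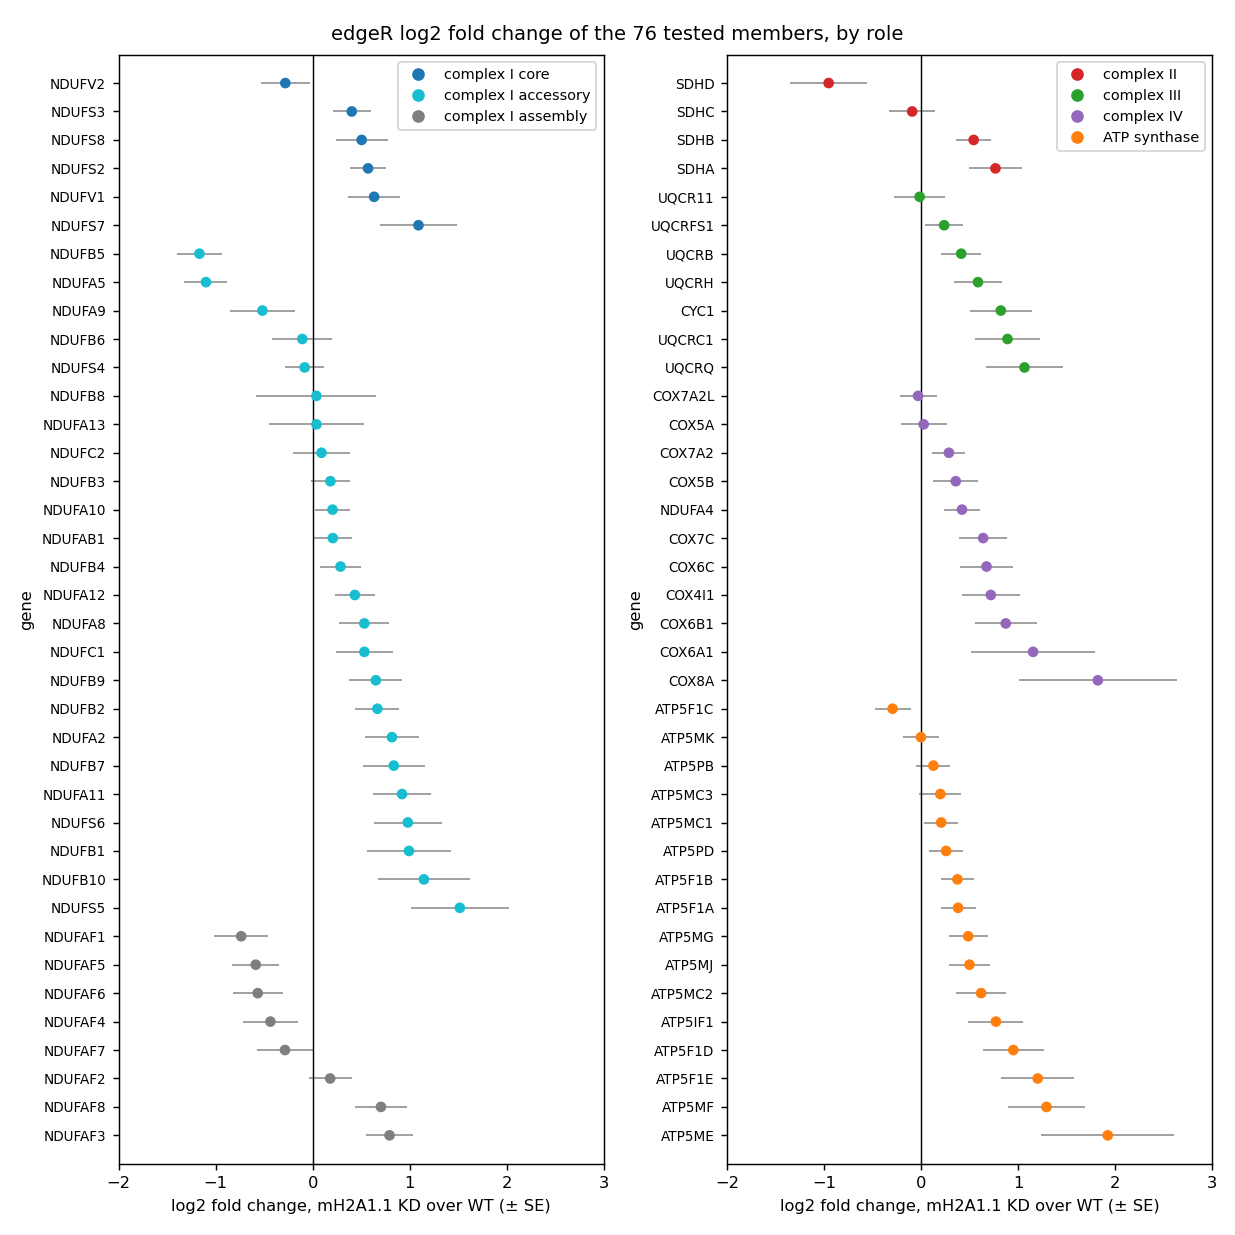
Log2 fold change of mH2A1.1 KD over WT (x axis, edgeR, bars ± SE) for each of the 76 tested members, grouped and coloured by role. Most points lie to the right of 0, ATP5ME and COX8A farthest with wide bars, and NDUFB5, NDUFA5, SDHD and 5 of the 8 assembly factors lie to the left.

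Fold changes followed GC content across the genome, more steeply in KD replicate 2. Over all genes tested, the median log2 fold change went from -0.48 at an exon GC content of up to 40% to 0.50 above 60%, and the median log2 ratio went from -0.25 to 0.18 in KD replicate 1 and from -0.81 to 0.79 in KD replicate 2. The members' median GC content was 47.1%, equal to that of all genes tested, and their median exon length was 2662 bp against 5615 bp. In the lowest and highest GC classes the members' medians were 0.24 and 0.83, and they exceeded the median of all genes in each of the 6 GC classes and 5 length classes. With offsets that removed the trends of GC content and length, the members' median was 0.40 and that of all genes tested was 0.0081, and 61 members lay above 0. ATP5F1E (1.81), GC-poor at 37.8% over the exons of all its transcripts, moved farther from 0 with offsets. NDUFB7 went from 0.84 to 0.06 and CYC1, also GC-rich, from 0.82 to 0.22. Lengths and GC contents join the exons of all annotated transcripts, 12600 bp for UQCRB, and may differ from those of the main mRNA. How this moved the offsets was not tested.

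**Figure D4:**
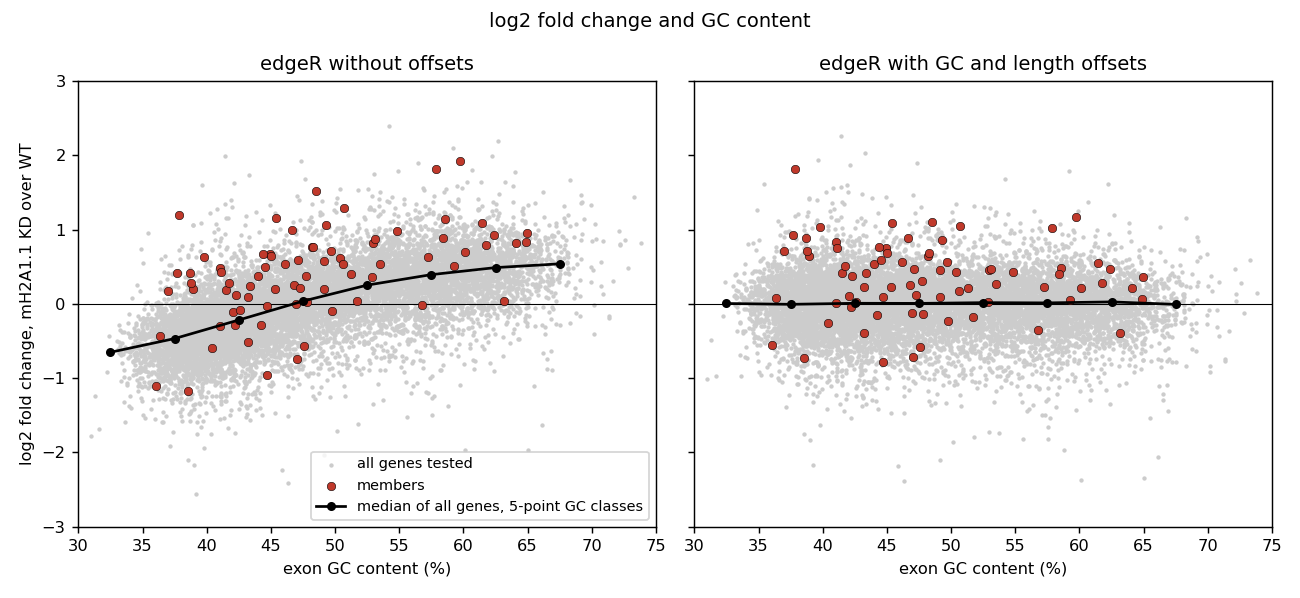
Log2 fold change (y axis) against exon GC content (x axis, %) for all genes tested (grey) and the members (red), in edgeR without offsets (left) and with GC and length offsets (right), with medians of all genes in classes of GC content (black). Without offsets the black line climbs from left to right, with them it is flat near 0, and in both the members lie mostly above it.

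With these offsets edgeR called 10 members higher and 1 lower of 76, against 2.2% and 3.18% of all genes tested. The higher ones, again named after their values were seen, were ATP5F1E, ATP5MG, ATP5MJ, COX7A2, COX7C, NDUFA12, NDUFA4, NDUFAF2, NDUFB2 and UQCRB, and the lower one was NDUFB5. ATP5F1E and NDUFB5 were the 2 that DESeq2 without offsets had also called, so the direction of the members as a group held while the named calls changed. Medians by role with offsets were 0.72 for complex IV, 0.49 for ATP synthase, 0.42 for complex III, 0.25 for accessory and 0.22 for core subunits of complex I, and 0.17 for complex II.

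Promoters are shown for the 3 members with the highest and the 3 with the lowest log2 fold changes among the 55 whose RefSeq start lay within 500 bp of the GENCODE gene start, as set out in the methods. Each runs from 250 bases before to 50 after the start, 5′ to 3′ on the gene's strand, in GRCh38 from RefSeq. Capitals mark matches, on either strand, to GCATGCGC of NRF1, CCGGAAG of ETS factors such as GABP, or AAGATGGC of YY1, which are factors known to act at such genes.
ATP5ME: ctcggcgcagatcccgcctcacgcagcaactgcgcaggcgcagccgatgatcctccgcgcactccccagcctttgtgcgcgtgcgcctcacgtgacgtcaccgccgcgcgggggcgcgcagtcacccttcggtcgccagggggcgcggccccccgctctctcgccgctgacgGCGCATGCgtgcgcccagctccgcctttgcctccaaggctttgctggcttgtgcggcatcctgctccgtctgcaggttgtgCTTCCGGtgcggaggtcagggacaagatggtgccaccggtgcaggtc
COX8A: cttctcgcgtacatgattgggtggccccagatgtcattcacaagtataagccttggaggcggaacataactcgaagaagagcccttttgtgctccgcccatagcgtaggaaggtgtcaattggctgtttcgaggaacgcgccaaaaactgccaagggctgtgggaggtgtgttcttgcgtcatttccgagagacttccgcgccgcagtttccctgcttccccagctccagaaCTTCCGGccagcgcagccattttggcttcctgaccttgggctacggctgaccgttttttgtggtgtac
ATP5F1E: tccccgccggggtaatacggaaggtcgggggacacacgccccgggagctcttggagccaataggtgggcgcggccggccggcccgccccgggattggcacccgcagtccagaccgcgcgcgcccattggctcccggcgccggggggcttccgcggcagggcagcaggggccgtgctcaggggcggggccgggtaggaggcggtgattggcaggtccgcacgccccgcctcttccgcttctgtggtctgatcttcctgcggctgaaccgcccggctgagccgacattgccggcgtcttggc
SDHD: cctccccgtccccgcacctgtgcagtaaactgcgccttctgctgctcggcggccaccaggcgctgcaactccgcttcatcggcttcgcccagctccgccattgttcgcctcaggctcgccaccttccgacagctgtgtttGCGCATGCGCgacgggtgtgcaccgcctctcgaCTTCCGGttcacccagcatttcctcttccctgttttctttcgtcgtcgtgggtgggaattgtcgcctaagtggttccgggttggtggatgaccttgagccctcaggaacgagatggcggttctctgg
NDUFAF5: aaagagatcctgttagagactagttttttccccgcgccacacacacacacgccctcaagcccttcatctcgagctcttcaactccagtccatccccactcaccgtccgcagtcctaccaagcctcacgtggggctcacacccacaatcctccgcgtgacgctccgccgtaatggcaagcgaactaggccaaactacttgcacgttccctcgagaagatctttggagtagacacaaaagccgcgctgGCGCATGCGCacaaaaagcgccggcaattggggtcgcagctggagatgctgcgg
NDUFA9: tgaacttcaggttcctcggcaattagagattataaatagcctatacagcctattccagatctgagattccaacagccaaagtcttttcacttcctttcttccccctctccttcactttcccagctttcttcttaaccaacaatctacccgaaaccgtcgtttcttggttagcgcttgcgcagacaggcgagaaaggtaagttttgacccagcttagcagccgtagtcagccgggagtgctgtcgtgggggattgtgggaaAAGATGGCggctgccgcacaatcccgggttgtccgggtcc
These lie at chr4:674227-674526 (minus), chr11:63974370-63974669 (plus), chr20:59032286-59032585 (minus), chr11:112086623-112086922 (plus), chr20:13784778-13785077 (plus) and chr12:4648864-4649163 (plus). ATP5ME, highest of the members, and SDHD, among the lowest, both hold the NRF1 and the ETS letters, and ATP5F1E holds none of the 3 motifs in this window, at a GC content of 74%.

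Of 68 members with a RefSeq promoter, 13 (19.1%) held the NRF1 letters, 19 (27.9%) the ETS letters and 7 (10.3%) the YY1 letters, where 3.11%, 10.7% and 3% of the 25331 promoters of chromosomes 1 to 20 and 5.68%, 19.9% and 5.65% of those of tested genes did. At least 1 motif was in 45.6% of the members' promoters, against 28.1% for tested genes. Members with the NRF1 letters had a median log2 fold change of 0.53 (13 tested) and those without 0.42 (48 tested). For the ETS letters these medians were 0.51 and 0.38, and for YY1 0.33 and 0.43. The motifs were thus more frequent in members than in promoters at large, while the medians with and without them lay close together.

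An mH2A1.1 peak lay within 500 bp of the TSS of 42 of the 88 members, or 47.7% (95% Clopper-Pearson interval 37% to 58.6%, counting error only), where 41.6% of all and 47% of the tested protein-coding genes had one. Peaks came from 1 library per antibody, with no replicate check, and lay on a grid of 3000 bp. Among the 76 tested members, 36 had one. The members' mH2A1.1 share was therefore close to that of genes at large. Of the 42, 24 had a peak that also overlapped a peak of total mH2A1 (27.3% of members), and 15 members (17%) had an mH2A1 peak at the TSS. Tested protein-coding genes gave 26.4% and 18.6%. These bases differ, as the members' shares take in untested members with both peaks, namely COX4I2, COX6B2, NDUFA4L2 and UQCRHL. By role, 9 of 25 accessory subunits of complex I, 5 of 8 assembly factors and 9 of 17 complex IV genes had an mH2A1.1 peak, and none of the assembly factors had one that overlapped an mH2A1 peak.

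**Figure D5:**
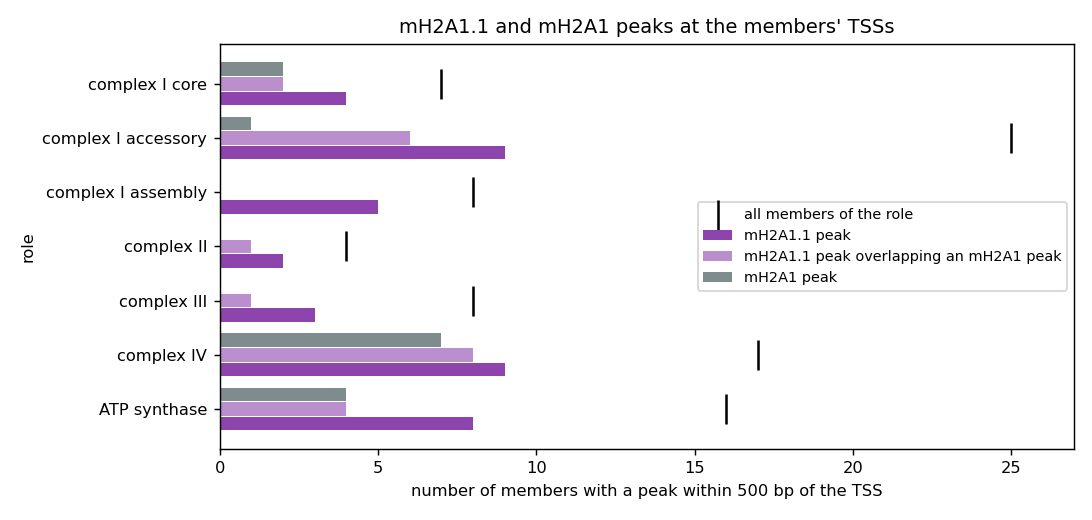
Number of members (x axis) with a peak within 500 bp of the TSS by role (y axis), for mH2A1.1 peaks, mH2A1.1 peaks that overlap an mH2A1 peak, and mH2A1 peaks, with black ticks at the number of members in the role. For every role except complex I assembly, at least 1 mH2A1.1 peak overlapped an mH2A1 peak, and complex IV had the most mH2A1 peaks, 7 of 17. Among these 7, COX4I2, COX6B2, COX7A1 and NDUFA4L2 did not pass the filter on low counts.

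Peaks at the members' starts ranged from 1 bin of 3000 bp, for 10 members, to 123000 bp at ATP5F1D. Whole gene bodies lay inside peaks for 15 members (17% against 11.2% of protein-coding genes), namely ATP5F1D, ATP5ME, ATP5MK, NDUFA2, NDUFA7, NDUFAF3, NDUFB7, NDUFS8, NDUFV1, UQCRQ, UQCRHL, COX5B, COX6A1, COX6B2 and COX8A. The median coverage of a member's gene body was 9.22%, with a range from 0 to 100%, against a median of 7.07% over protein-coding genes. The 15 were short, with a median span of 3080 bp, close to 1 bin. At ATP5ME and COX8A the peaks spanned chr4:648001-690000 and chr11:63948001-63978000, which reach far beyond the genes.

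Members with an mH2A1.1 peak at the TSS had a median log2 fold change of 0.52 (36 tested) and those without 0.33 (40 tested), where all genes tested gave 0.16 and -0.12. GC content moved with this split, at medians of 48.8% and 44.96% for members and 52.2% and 43.8% for all genes. With GC and length offsets the members' medians were 0.41 and 0.40, and those of all genes 0.011 and 0.011. The 12 tested members wholly inside peaks had a median of 0.83, or 0.32 with offsets, and the 1010 tested protein-coding genes wholly inside peaks had 0.44, or 0.037 with offsets. With the trends removed, members with and without a peak thus lay above genes at large by similar amounts.

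Other genes of the pathway were read from lists set beside the members. Of 13 tested TCA cycle genes, 7 were wholly above WT and 4 wholly below, with a median log2 fold change of 0.13, or 0.30 with offsets. Of 16 glycolysis genes, 13 were wholly above and 1 wholly below, with a median of 0.59, or 0.27 with offsets. Assembly factors not among the members, 35 tested, had a median of 0.19, or 0.13 with offsets. They serve complex I, such as FOXRED1, ACAD9 and NUBPL, as well as the other complexes. For 12 nuclear regulators of mitochondrial genes it was -0.020, and with offsets 0.10, so that its sign depended on that setting. In edgeR no gene of these lists was called. DESeq2 on chromosomes 1 to 20 called 2 TCA cycle genes, 5 glycolysis genes and 2 nuclear regulators higher, and 1 assembly factor lower, where it called 5.57% of all genes higher and 5.78% lower. Among regulators, TFAM, which packages mitochondrial DNA, was at 135, 124, 104 and 62.0 CPM, and ESRRA, a nuclear receptor acting on these genes, was at 22.02, 26.9, 32.9 and 59.6 CPM. TFAM lay below WT and ESRRA above WT in each KD library. Log2 fold changes were -0.63 for TFAM and 0.88 for ESRRA, or -0.043 and 0.35 with offsets. Of the 12 regulators, 4 were wholly above WT and 5 wholly below.

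Counts of several members are uncertain. Of the 88, 29 shared exon bases with another annotated gene on the same strand, 32 did so with a gene on the opposite strand, and 46 had processed copies by name, 182 copies in all. The low members NDUFB8 (12, 20, 7 and 7 counts), NDUFA7 (11, 7, 3 and 1 counts) and COX6A1 each shared exon bases with another gene on their strand, of which NDUFB8 shared 675 of 1999. NDUFA5 had 12 processed copies by name. Whether such sharing took reads away or added them was not tested. Of the 12 members that did not pass the filter, 6 were at 0 in every library, namely NDUFS1, COX4I2, COX6A2, COX7A1 and the readthrough genes ATP5MF-PTCD1 and NDUFC2-KCTD14. The smallest count of a tested member in KD replicate 2 was 7, and values of such low members carry a large counting error.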

How the data were processed

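Total RNA and chromatin of MDA-MB-231 cells were sequenced. RNA-seq data were deposited as raw counts for each gene, obtained by the authors from reads aligned to GRCh38 with STAR (2.5.1 in the submitters' processing notes), stripped of duplicates and counted by htseq-count with its defaults. The annotation behind the counts is not given in the sources used here. The deposited ChIP-seq values are peak positions in base pairs, called by the authors against input with normR on single libraries. The input and promoter capture Hi-C samples were not used.

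Of 23167 identifiers, 23061 matched GENCODE release 44, and the other 106 held 0.12% to 0.176% of counts. Groups came from the sample labels. Counts were tested with edgeR 4.0.16 (R 4.3.3; TMM, its low-count filter, quasi-likelihood test, Benjamini-Hochberg adjustment over genes of chromosomes 1 to 20), with thresholds of an adjusted p of 0.1 and a fold change of 1.5. SEs were taken from the F statistic. DESeq2 1.42.0, other size factors, no filter, all chromosomes, GC and length offsets (lowess span 0.3), a replicate block and leaving out each library were alternatives. CPM per kb used the summed length of the merged exons of all annotated transcripts, as did the offsets. The scripts were tested on simulated data. Intervals used scipy 1.17.1 in Python 3.11.15.

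Named genes were, by role, the highest WT CPM per kb; the 5 highest and 5 lowest log2 fold changes; members past the thresholds in edgeR; the SDH and ATP5MC genes; isoform pairs; ATP5IF1; members wholly inside peaks or at 0; and MACROH2A1. Members and lists were chosen with earlier results of these data known. No promoter of chromosome 8 was printed. Other names were chosen after their values were seen.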

Additional observations from a re-analysis of the deposited data

How the results depend on the processing

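The count of called members depended on the fit. Against 0 in edgeR, members called numbered 16 in DESeq2, 5 in DESeq2 on all chromosomes, 11 with GC and length offsets, 15 in DESeq2 with these offsets and 32 without the filter on low counts (39% of members, against 14.3% of all genes), and 0 with DESeq2 size factors or with all chromosomes in edgeR. At an adjusted p under 0.1 alone the numbers were 16, 8, 16, 17 and 32. Leaving out 1 library gave 0 to 50 called members and 0 to 60 at the adjusted p alone. Without KD replicate 1 there were 50 (65.8% of members, against 41.8% of all genes tested), without KD replicate 2 there were 4 (5.26% against 8.06%), without WT replicate 2 there was 1 and without WT replicate 1 there were 0, and a lone library was then assumed to vary like the other group. The cause was not tested. The members' median log2 fold change was positive under every alternative, from 0.23 without KD replicate 2 to 0.64 without KD replicate 1.

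Groups share replicate numbers only, and deviations of same-numbered libraries correlated at 0.252 across genes. With a replicate block, edgeR called 31 members (34 at the adjusted p alone), 28 higher and 3 lower, and 20.1% of all genes. With the block and offsets it called 26 (45 at the adjusted p alone), 22 higher and 4 lower, and 7.9% of all genes.

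Changes of sign were seen for several members. COX7A2L was at 0.098 with offsets in edgeR, 0.099 with offsets in DESeq2 and 0.092 with the block and offsets. With offsets in edgeR, ATP5F1C went from -0.30 to 0.011, NDUFAF4 from -0.44 to 0.080 and NDUFA13 from 0.039 to -0.40, among others. When single libraries were left out, log2 fold changes ran from -0.15 (without KD replicate 1) to 0.053 (without KD replicate 2) for COX7A2L, where it was 0.040 without WT replicate 1, from -0.022 to 0.41 for ATP5MC3, from -0.035 to 2.86 for COX8A and from -0.48 to 0.19 for SDHC, in which KD replicate 1 and KD replicate 2 set the ends. The share of members with a peak at the TSS was 27.3% with common peaks and 17% with mH2A1 peaks, and the median gene body coverage was 0 with either. Ordered per length from gene start to end, 2 of the 10 highest members were shared with the order per exon length. The 2309549 counts of KD replicate 2 limit the precision of low members.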
